A study of Mus musculus with 8 samples.

Results

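Tight junctions seal the space between neighbouring epithelial cells. Their strands are built from claudins, which set whether ions pass or are held back, together with occludin, tricellulin and the JAM adhesion molecules. On the cytoplasmic side, plaque scaffolds such as Tjp1 and the cingulins tie the strands to actin, and the Par and Crumbs complexes, with an atypical protein kinase C, place the junction at the border between apical and lateral membrane. In the oviduct such junctions close the epithelium around the lumen.

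The genes described are 37 claudins and tight junction components, out of 23337 gene symbols measured. They are 18 claudins, 6 other membrane proteins, 4 plaque proteins and 9 polarity proteins, taken by symbol from a list of names, and all 37 were present. RNA sequencing was done on MOE cells, a line of oviductal epithelium from FVB mice. The oviduct is the mouse counterpart of the fallopian tube. Cells were detached with trypsin at confluence and then held for 6 h on 3D collagen gels or on 2D collagen, with 4 libraries on each. Both groups were in MOE medium lacking EGF. The labels do not name separate cultures behind the libraries. Every p-value therefore reflects spread among these libraries alone, and that spread may be technical.

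Libraries held 15692699 to 25862036 reads, and 14064 to 14598 genes had at least 1 read. Values are normalized counts, that is reads over the size factor of the library. Of the markers of oviductal epithelium, the keratins Krt7, Krt8, Krt18 and Krt19 and the Müllerian factor Pax8 were abundant. Epcam had 0 to 21.0 normalized counts in 3D libraries and 1.95 to 29.9 in 2D libraries, the oviduct secretory glycoprotein Ovgp1 had 7.86 to 27.2 and 1.19 to 18.4, and the adherens junction cadherin Cdh1 had 17.4 to 104 and 18.4 to 90.2. The library 2D replicate 2 stood apart. In 2D replicate 2 the deviation of a gene from its mean over all libraries followed the GC content of its transcript, with Spearman's rho = 0.68 across 11709 genes of that library, against −0.46 to 0.23 in the other libraries. Summed markers of other cell types were 4094 to 15889 normalized counts on 3D and 8318 to 41529 on 2D collagen for fibroblast and muscle, nearly all from Acta2 (4015 to 15736 and 8244 to 41152), and 383 to 1425 and 1249 to 2135 for ciliated cells (Dnah9 at 0 everywhere). For leukocytes the sums were 444 to 718 and 402 to 814, for kidney tubule 17.4 to 50.4 and 4.90 to 27.7, and for stomach and lung at most 1.87 and 1.19, with 3D before 2D. Their part in the values of junction genes was not tested.

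Of the junction genes, 19 passed a filter of at least 10 normalized counts in at least 4 libraries and were tested. On 3D collagen 2 of them fell, the claudin Cldn12 and the kinase Prkci, and none rose (limma on log2(normalized count + 1), Benjamini-Hochberg adjusted p under 0.05 over all genes). Over all 11820 genes tested, 3.39% fell and 2.33% rose, or 5.72% in either direction. At an unadjusted p under 0.05 there were 3 of the 19 junction genes, 1 higher and 2 lower, where 24.2% of all genes tested were under it (11.7% higher and 12.6% lower). Both edgeR and DESeq2 also called 2 junction genes lower and 0 higher. Of all 11820 genes, edgeR called 369 lower and 308 higher, and DESeq2 called 871 lower and 708 higher. The groups did not overlap for 2 of the 19, again Cldn12 and Prkci, both with 3D below 2D. Among all genes tested the groups did not overlap for 18.4%, with 3D below 2D for 10.4% and above for 8.05%. The median log2 fold change was 0.48 over the 19 and 0.02 over all genes tested. Without 2D replicate 2 the middle log2 fold change of the 19 was that of Pard6a, at 0.014. In bulk RNA, fewer cells of a type and less RNA per cell cannot be told apart.

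The sequences before the start sites of the 2 genes that fell are shown because these are the only members past the threshold. They come from RefSeq on GRCm38.p6 and cover the 250 bases before the annotated start and 50 bases from it, 5′ to 3′ along the gene's strand, and 2 of 2 genes matched by symbol. The Cldn12 window is chr5:5514927-5515226 on the minus strand, the window nearest the gene's annotated start of 3 listed for that gene. The Prkci window is chr3:30995521-30995820 on the plus strand. Capitals mark matches to 6 motifs searched on both strands, chosen after these sequences had been seen.
Cldn12: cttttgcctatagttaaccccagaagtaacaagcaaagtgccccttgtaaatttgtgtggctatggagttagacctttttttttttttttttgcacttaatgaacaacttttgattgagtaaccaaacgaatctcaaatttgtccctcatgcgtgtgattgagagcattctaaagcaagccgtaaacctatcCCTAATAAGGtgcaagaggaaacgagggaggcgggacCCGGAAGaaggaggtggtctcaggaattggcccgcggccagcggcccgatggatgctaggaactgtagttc
Prkci: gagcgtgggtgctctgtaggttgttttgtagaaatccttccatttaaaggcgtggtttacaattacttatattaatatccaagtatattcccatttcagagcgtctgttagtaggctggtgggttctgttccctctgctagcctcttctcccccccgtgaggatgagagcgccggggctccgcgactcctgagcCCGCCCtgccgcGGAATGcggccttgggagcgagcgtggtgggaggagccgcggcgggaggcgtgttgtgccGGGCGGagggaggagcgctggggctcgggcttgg

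In the Cldn12 window the first run of capitals matches the SRF CArG box, which 1.63% of all 32851 promoter windows hold, and the second matches the ETS motif CCGGAAG, held by 8.86%. In the Prkci window the middle run matches the TEAD motif GGAATG, held by 14.7% of windows, and the runs on either side match the SP1 GC box GGGCGG on the reverse and forward strand, held by 35.7%. No match overlapped another. The AP-1 motif TGANTCA (7.81% of windows) and the Snail E-box CACCTG (20.2%) had no match in either window. The windows of the 2 genes had no motif in common among those searched.

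Of the 18 claudins 5 passed the filter, namely Cldn2, Cldn12, Cldn4, Cldn1 and Cldn10, and together they held at least 98.6% of the summed claudin level per kb of exon in every library. Cldn12, an atypical claudin studied for calcium passage in the intestine of mice, was the only one of the 5 that passed the test. It lies on chromosome 5, 5489537 to 5514958 on the minus strand (GENCODE M21, mm10). Cldn12 had 1238, 1195, 1153 and 1110 normalized counts in 3D replicates 1 to 4, against 3114, 3594, 3432 and 3192 in 2D replicates 1 to 4. Every 3D library was below every 2D library, and the 4 values of each group lay close together. The means were 1174 ± 54.9 on 3D and 3333 ± 221 on 2D collagen (SD, n = 4 each), that is 2.83-fold lower on 3D (log2 fold change −1.50, SE 0.12, 95% interval −1.77 to −1.23; adjusted p = 0.00102 in limma). By unadjusted p it ranked 4 among all genes lower on 3D. It was called in each fit that left out 1 library, at limma adjusted p of 0.00179 to 0.00702. Its GC content is 44.5%, and after the GC trends were removed from every library its log2 fold change was −1.68.

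Cldn2, which forms channels for cations and water, was the most abundant claudin per kb on average. It had 4102, 2528, 3659 and 1531 normalized counts in 3D replicates 1 to 4, and 2670, 1549, 3485 and 1055 in 2D replicates 1 to 4. The groups overlapped widely, and in both the library numbered 4 was lowest. Its log2 fold change was 0.48 (95% interval −0.46 to 1.43, limma adjusted p = 0.522).

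Cldn4, a claudin that tightens junctions, had 1076, 1430, 1063 and 492 normalized counts in 3D replicates 1 to 4, and 561, 1585, 654 and 324 in 2D replicates 1 to 4. The highest value of all 8 was that of 2D replicate 2, and the number 4 libraries were again lowest in each group. The log2 fold change was 0.52 (95% interval −0.56 to 1.60, limma adjusted p = 0.547). Without 2D replicate 2 it was 0.95 (95% interval 0.098 to 1.79, limma adjusted p = 0.184), and the 2D mean was 513 ± 170 (SD, n = 3). The GC content of Cldn4 is 56.8%, and 2D replicate 2 also had the highest sums of intestine and liver markers (441 and 560 normalized counts, against 73.2 to 284 and 7.32 to 541 in the other libraries). In the intestine sums, Cdh17 alone had 183 normalized counts in 2D replicate 2 and 44.8 to 234 in the other libraries. The part of these markers in the Cldn4 value was not tested.

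Cldn1, a barrier-forming claudin of skin and many epithelia, ranged from 761 to 1109 normalized counts on 3D and from 745 to 1331 on 2D collagen. Its log2 fold change of 0.03 had a 95% interval of −0.45 to 0.52, narrower than that of Cldn2 or Cldn4. Cldn10, which forms ion-selective channels in kidney and glands, ranged from 126 to 768 on 3D and from 60.1 to 270.5 on 2D collagen. The lowest value of each group was the library numbered 4, and the log2 fold change was 1.16 (95% interval −0.23 to 2.56, limma adjusted p = 0.289). Its interval was the widest of the 5 claudins.

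The make-up of the claudin pool differed between the collagens. Cldn12 made up 11.3%, 12.8%, 11.4% and 21.3% of the summed claudin level per kb in 3D replicates 1 to 4, against 33.1%, 35.0%, 32.2% and 51.9% in 2D replicates 1 to 4. The highest 3D share was below the lowest 2D share, and in both groups the share was highest in the number 4 library, where Cldn2, Cldn4 and Cldn10 were low. Cldn2 averaged 41.4% ± 6.50 on 3D and 29.7% ± 10.9 on 2D collagen, with overlap (SD, n = 4 each). The summed level itself was 2105 ± 600 normalized counts per kb on 3D and 2157 ± 484 on 2D collagen, a difference within the spread of either group. These shares follow from the Cldn12 values above and carry no test.

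**Figure D1:**
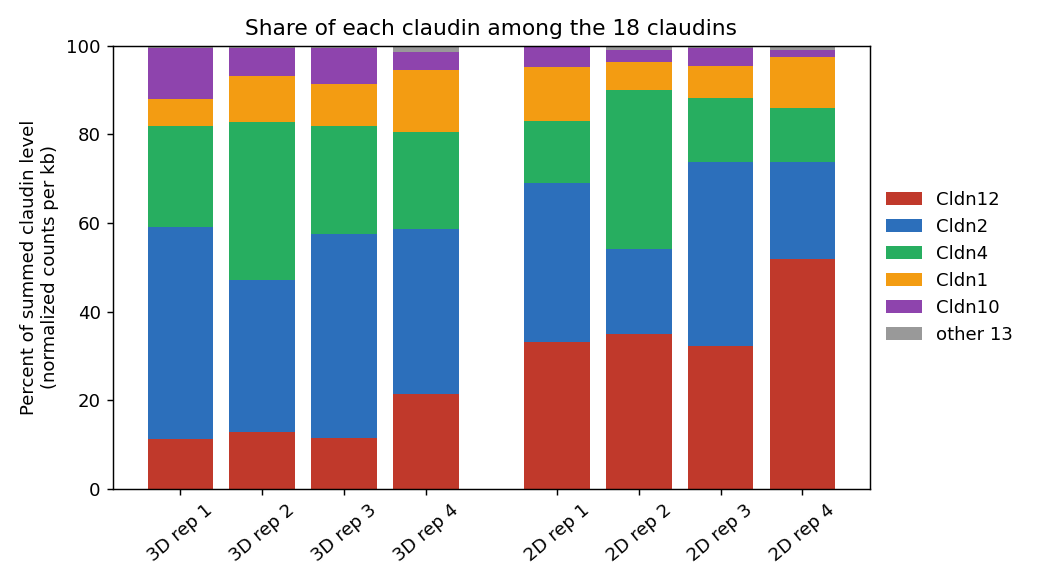
Share of each claudin in the summed level of the 18 claudins (normalized counts per kb of exon, percent) in each 3D and 2D library. Cldn12 (red) takes 11.3% to 21.3% in the 3D libraries and 32.2% to 51.9% in the 2D libraries, and the other 13 claudins (grey) are barely visible.

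The other 13 claudins were under the filter, with at most 17 reads in any library. Cldn15, Cldn9, Cldn19 and Cldn3 reached 15.5, 11.9, 13.4 and 7.17 normalized counts in their highest libraries. Cldn3 and Cldn15 were highest in 2D replicate 2, the library with the highest sums of intestine and liver markers. In 3D replicate 1, with the next highest sums of these markers (284 and 541), Cldn3 had 1.13 and Cldn15 6.79 normalized counts. The part of intestine and liver transcripts was not tested. Cldn5, the claudin of endothelium, and Cldn6, Cldn8, Cldn11, Cldn14, Cldn16, Cldn18, Cldn22 and Cldn23 had at most 3 reads in every library. A floor of 3 reads equals 2.37 to 3.68 normalized counts, depending on the library, so differences at this level were not detectable. Cldn22 lies wholly (100%) within exons of Wwc2 on the other strand, and as the strand setting is not given, its few reads cannot be assigned.

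Of the other membrane proteins, F11r (JAM-A), an immunoglobulin-type adhesion molecule that helps start junction assembly, was by far the most abundant per kb. It had 2032, 1368, 1639 and 1298 normalized counts in 3D replicates 1 to 4, and 1971, 2219, 2079 and 1568 in 2D replicates 1 to 4. The 2 highest values were on 2D collagen, but the groups overlapped (log2 fold change −0.32, 95% interval −0.73 to 0.09, limma adjusted p = 0.323). Jam2, better known from endothelium, had 32.8, 47.1, 44.8 and 51.2 normalized counts in 3D replicates 1 to 4, and 51.6, 20.3, 26.9 and 20.8 in 2D replicates 1 to 4. All 4 3D libraries were above 2D replicates 2, 3 and 4, while 2D replicate 1 was the highest of all 8 (log2 fold change 0.63, 95% interval −0.17 to 1.42, limma adjusted p = 0.315). Of 7 endothelial markers only the receptor Kdr passed the filter, and Pecam1 had 0 to 7.86 normalized counts on 3D and 0 to 1.23 on 2D collagen.

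The other strand proteins were scarcely detected. Ocln, which encodes occludin, had 1.13, 2.62, 0 and 0 normalized counts in 3D replicates 1 to 4, and 4.87, 2.39, 1.58 and 0 in 2D replicates 1 to 4. Marveld3, a relative of occludin, had 3.40, 4.37, 1.87 and 3.66 in 3D replicates 1 to 4, and 1.95, 2.39, 0 and 0 in 2D replicates 1 to 4. Marveld2, the tricellulin of contacts between several cells, had at most 2 reads in any library, and Jam3 had 4 reads in 2D replicate 2 and none in the other 7 libraries. Of the exonic length of Jam3, 36.2% also lies in a gene model on the opposite strand. At these levels no difference between the collagens could be resolved.

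**Figure D2:**
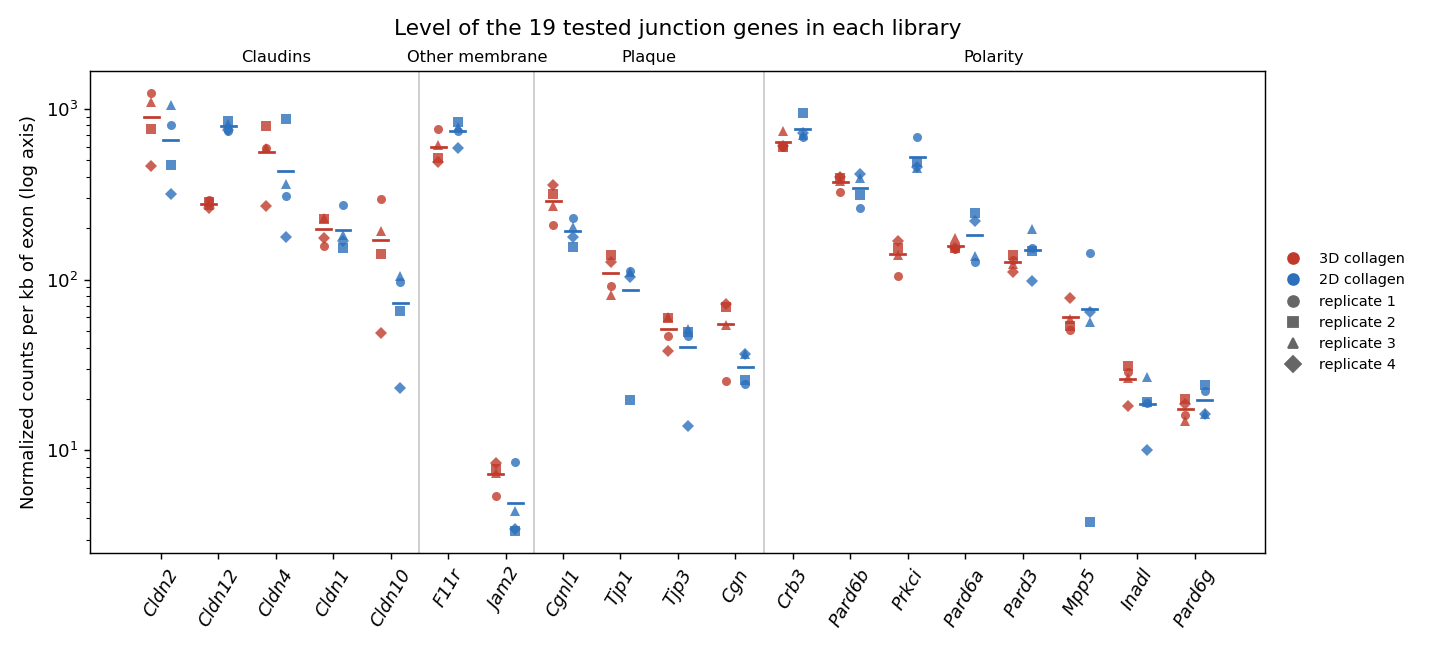
Level of the 19 tested junction genes in normalized counts per kb of exon (log axis), by library, with 3D collagen in red left of 2D collagen in blue, bars at the group means and marker shapes giving the replicate number. The red and blue points are apart for Cldn12 and Prkci, while for the other genes they overlap. The lowest blue points of Tjp1 and Mpp5 are 2D replicate 2.

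None of the 4 plaque proteins passed the test in limma, edgeR or DESeq2, and 1, Cgnl1, had an unadjusted p under 0.05. Cgnl1 (paracingulin), a junction plaque protein related to cingulin, was the most abundant per kb. It had 1643, 2501, 2117 and 2810 normalized counts in 3D replicates 1 to 4, and 1804, 1221, 1594 and 1394 in 2D replicates 1 to 4. The values of 3D replicates 2, 3 and 4 were above every 2D library and that of 3D replicate 1 was not. The log2 fold change was 0.58 (SE 0.20, 95% interval 0.13 to 1.03, limma adjusted p = 0.119). Its relative Cgn (cingulin) ranged from 154 to 432 on 3D and from 147 to 222 on 2D collagen, likewise lowest among 3D libraries in replicate 1, with a log2 fold change of 0.75 (95% interval −0.02 to 1.52).

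Tjp1, the zonula occludens scaffold that binds claudin tails, had 713, 1085, 635 and 994 normalized counts in 3D replicates 1 to 4, and 879, 154, 868 and 805 in 2D replicates 1 to 4. The single low value was 2D replicate 2, at 0.181 times the mean of the other 2D libraries. With it the log2 fold change was 0.59 (95% interval −0.61 to 1.79), and without it −0.02 (95% interval −0.49 to 0.45, limma adjusted p = 0.961). Tjp1 averaged 857 ± 217 on 3D (SD, n = 4) and 851 ± 39.9 on 2D collagen without that library (SD, n = 3). Tjp3, another scaffold of the family found in epithelia, had 173, 220, 225 and 143 normalized counts in 3D replicates 1 to 4, and 174, 183, 190 and 51.5 in 2D replicates 1 to 4. Here 2D replicate 4 was the low one (log2 fold change 0.49, 95% interval −0.46 to 1.44).

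Among the polarity proteins the kinase subunit fell while its partners did not pass the test. Prkci encodes atypical protein kinase C iota, the catalytic member of the Par complex (chromosome 3, 30995747 to 31052959 on the plus strand). It had 579, 849, 772 and 936 normalized counts in 3D replicates 1 to 4, against 3805, 2700, 2507 and 2521 in 2D replicates 1 to 4. Every 3D library was below every 2D library, and 2D replicate 1 stood above the other 3 of its group. The means were 784 ± 152 on 3D and 2883 ± 621 on 2D collagen (SD, n = 4 each), or 3.67-fold lower on 3D (log2 fold change −1.88, SE 0.20, 95% interval −2.32 to −1.43; adjusted p = 0.00232 in limma). It ranked 15 by unadjusted p among genes lower on 3D. The call held in each fit that left out 1 library (limma adjusted p of 0.00398 to 0.0154) and after the GC trends were removed. It was lost, at limma adjusted p = 0.0538 and a log2 fold change of −1.76, only in the fit that left out 2D replicate 2 and 3D replicates 1 and 2 together, where 3D collagen kept 2 libraries. Prkcz, the other atypical kinase, had at most 1 read in any library, against 579 or more normalized counts of Prkci.

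Crb3, the Crumbs protein of epithelia, was the most abundant polarity gene per kb. It had 934, 937, 1157 and 942 normalized counts in 3D replicates 1 to 4, and 1069, 1486, 1091 and 1131 in 2D replicates 1 to 4. The values of 3D replicates 1, 2 and 4 were below every 2D library, and that of 3D replicate 3 was above 3 of them (log2 fold change −0.26, 95% interval −0.61 to 0.09, limma adjusted p = 0.345). Pard6b, an adaptor of the Par complex that binds the kinase, had 1104, 1336, 1283 and 1346 normalized counts in 3D replicates 1 to 4, and 890, 1057, 1329 and 1408 in 2D replicates 1 to 4. The groups overlapped, with a log2 fold change of 0.13 (95% interval −0.26 to 0.52). Its paralogs Pard6a and Pard6g ranged from 239 to 278 and 46.6 to 62.9 on 3D, and from 202 to 388 and 51.4 to 76.4 on 2D collagen. Pard3, the scaffold of the complex, ranged from 1609 to 2033 on 3D and from 1417 to 2866 on 2D collagen (log2 fold change −0.20, 95% interval −0.67 to 0.26).

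The Crumbs scaffolds Mpp5 (Pals1) and Inadl (Patj) link Crb3 to the plaque. Mpp5 had 445, 471, 515 and 688 normalized counts in 3D replicates 1 to 4, and 1255, 33.4, 497 and 570 in 2D replicates 1 to 4. The 2D libraries thus held both its highest and its lowest value, and the lowest, in 2D replicate 2, was 0.0432 times the mean of the other 2D libraries. Its log2 fold change was 0.65 (95% interval −1.44 to 2.74) and −0.44 without that library (95% interval −1.16 to 0.28). At 39.5% and 46.8%, Mpp5 and Tjp1 are among the 6 tested junction genes of lowest GC content. Of these 6, Cldn1, Jam2, Prkci and Cldn12 did not drop as far in 2D replicate 2. They were at 0.738, 0.613, 0.917 and 1.11 times the mean of the other 2D libraries. The part of the GC trend of 2D replicate 2 in the values of Mpp5 and Tjp1 was not tested. Inadl ranged from 238 to 410 on 3D and from 132 to 354 on 2D collagen (log2 fold change 0.53, 95% interval −0.17 to 1.23).

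**Figure D3:**
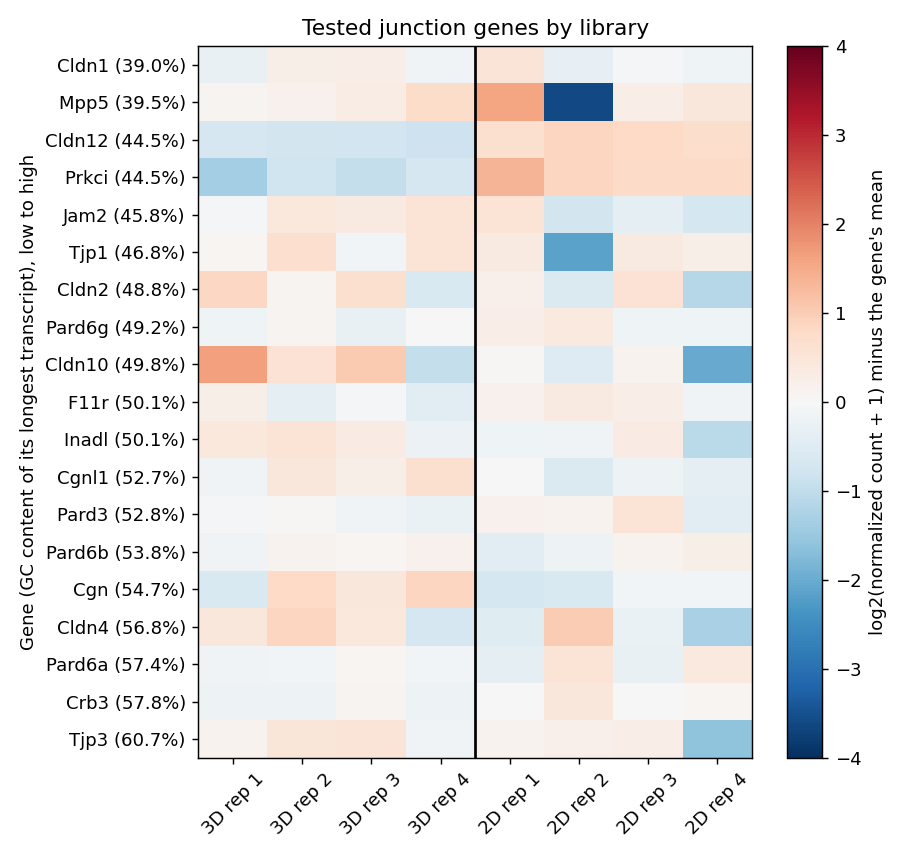
Each tested junction gene in each library as log2(normalized count + 1) minus the gene's mean over the 8 libraries (colour scale), with 3D libraries left of 2D libraries and genes ordered by the GC content of their longest transcript. Cldn12 and Prkci are blue in all 4 3D libraries and red in all 4 2D libraries. Mpp5 and Tjp1 are dark blue in 2D replicate 2, and Cldn2, Cldn10, Cldn4 and Inadl are blue in both libraries numbered 4.

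Levels of Cldn12 and Prkci relative to genes of their own role are given as log2 ratios within a library. The 2 genes were taken because they had passed the test on these libraries, so the ratios are a description and carry no test. The log2 ratio of Prkci to Pard6b averaged −0.71 ± 0.17 on 3D and 1.30 ± 0.58 on 2D collagen (SD, n = 4 each), a difference of −2.01. That of Prkci to Pard3 averaged −1.24 ± 0.37 on 3D and 0.44 ± 0.48 on 2D collagen. For Cldn12 to Cldn2 the means were −1.23 ± 0.59 and 0.75 ± 0.78, and for Cldn12 to Cldn1 they were 0.32 ± 0.29 and 1.85 ± 0.44, with 3D given before 2D.

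**Figure D4:**
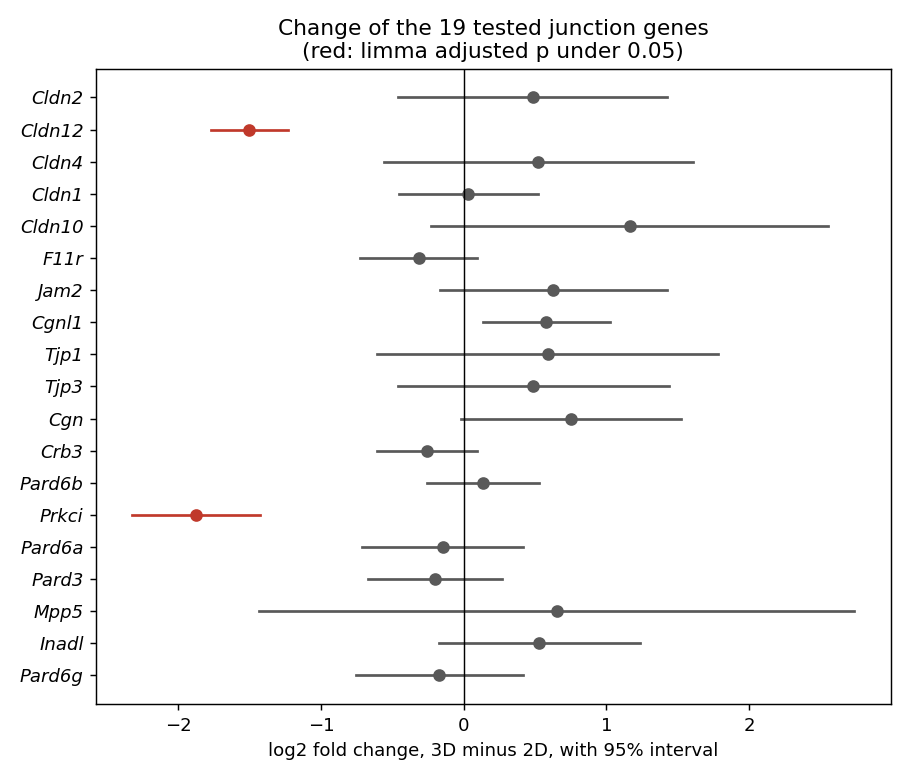
Log2 fold change of the 19 tested junction genes, 3D minus 2D collagen, as points with 95% intervals from limma. Cldn12 and Prkci (red) lie wholly below 0, Cgnl1 lies above 0 without passing the adjusted threshold, and the intervals of the other 16 span 0.

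Other genes of the pathway were counted in 5 lists within the same fit, with 70 genes tested. Of these 3 rose and 3 fell on 3D collagen, where 2.33% of all genes tested rose and 3.39% fell. Of all 11820 genes tested, edgeR called 308 higher and 369 lower, and DESeq2 called 708 higher and 871 lower. The DESeq2 counts below are therefore not comparable with the limma shares. Among further strand and plaque proteins 0 of 16 rose and 2 fell. Amotl2, an angiomotin that binds junction scaffolds, had 3365 ± 895 normalized counts on 3D and 8120 ± 1081 on 2D collagen (SD, n = 4 each), with −1.31 as log2 fold change (SE 0.22; adjusted p = 0.0144 in limma). Arhgef18, a junction-associated exchange factor, had 1508 ± 234 on 3D and 2745 ± 521 on 2D collagen (log2 fold change −0.86, limma adjusted p = 0.0284). Its call was lost without 2D replicate 3 or any one 3D library, at limma adjusted p of 0.0601 to 0.107. In this list 3 genes were higher and 3 lower at an unadjusted p under 0.05, against 11.7% and 12.6% of all genes tested. Here edgeR called 0 higher and 2 lower, and DESeq2 2 higher and 2 lower.

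Among 16 tested polarity partners Crb2, a paralog of Crb3, fell and none rose. It had 16.99, 21.0, 21.5 and 21.0 normalized counts in 3D replicates 1 to 4, against 59.4, 155, 131 and 56.4 in 2D replicates 1 to 4 (log2 fold change −2.13, SE 0.38, limma adjusted p = 0.0169). The groups did not overlap, and leaving out 3D replicate 1, 2 or 3 ended the call, at 0.0581 to 0.0618 for the adjusted p in limma. Of the list, 1 gene was higher and 6 were lower at an unadjusted p under 0.05, against 11.7% and 12.6% of all genes tested. For this list edgeR called 0 higher and 1 lower, and DESeq2 1 higher and 4 lower.

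Of 17 tested transcription regulators of epithelial junction genes, 3 rose and none fell. Klf5 averaged 178 ± 45.6 on 3D and 60.2 ± 15.6 on 2D collagen, Twist2 averaged 227 ± 59.8 and 74.5 ± 39.4, and Klf4 averaged 378 ± 40.6 and 201 ± 51.3 normalized counts (SD, n = 4 each, 3D before 2D). Klf4 and Klf5 are Krüppel-like factors of epithelia, and Twist2 is a basic helix-loop-helix factor known for repressing epithelial genes. Their log2 fold changes were 0.94 for Klf4, 1.55 for Klf5 and 1.69 for Twist2, with limma adjusted p of 0.0440, 0.0238 and 0.0284. Leaving out 3D replicate 1, 2 or 4 ended the call of Klf5 (adjusted p in limma of 0.0530 to 0.0852), as did for Twist2 leaving out 2D replicate 1 or 3 or any one 3D library (0.0537 to 0.0914). Klf4 passed without 2D replicate 3 and was lost without any other single library (0.0578 to 0.128). At an unadjusted p under 0.05, 5 regulators were higher and 2 lower, against 11.7% and 12.6% of all genes tested. For the regulators edgeR called 4 higher and 0 lower, and DESeq2 4 higher and 1 lower. The lower one was Elf3 (DESeq2 adjusted p = 0.0220), the most abundant regulator per kb. Elf3 had 8039 ± 1901 normalized counts on 3D and 16486 ± 6287 on 2D collagen, with overlap (SD, n = 4 each). Its log2 fold change in limma was −0.96 (limma adjusted p = 0.131).

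No gene of the nectin and afadin list (6 tested) passed in limma, edgeR or DESeq2, and 0 had an unadjusted p under 0.05. Its most abundant members were the nectin Pvrl2 (Nectin2) and the scaffold Mllt4 (afadin, Afdn), with log2 fold changes of −0.46 and 0.12. In the list of genes that control myosin at junctions 0 of 15 passed in limma and edgeR, 6 had an unadjusted p under 0.05 (4 higher and 2 lower, against 24.2% of all genes tested in either direction), and DESeq2 called 1 higher and 1 lower. Myh9, a non-muscle myosin heavy chain, and the kinase Cdc42bpb were its most abundant members per kb, with log2 fold changes of 0.09 and −0.43. Of the markers of oviductal epithelium, Krt8 fell on 3D collagen, at −0.76 on the log2 scale (adjusted p = 0.0397 in limma). Of the fibroblast and muscle markers 4 were tested, with log2 fold changes of −1.12 for Acta2, −0.73 for Col1a1, 0.94 for Dcn and 1.73 for the receptor Pdgfra. Pdgfra alone had a limma adjusted p under the threshold (0.0340), but its 2D values of 2.37 to 7.35 normalized counts were under the filter of 10, which it met through the 3D libraries (14.9 to 19.3).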

How the data were processed

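HTSeq 0.6.1p1, DESeq2 and the build mm10 are named in the submitters' processing notes. Not given in the sources used here are the aligner, the annotation and the strand setting. Per the labels' protocols, RNA was extracted with TRIzol and Qiagen columns. The authors deposited a normalized signal per gene. Whole reads were recovered from it for 100% of values (tolerance 0.001 reads), and the implied divisors differed from the size factors of DESeq2's method by at most 3.4e-09.

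The main test was limma 3.58.1 (R 4.3.3), with trended and robust prior variance, on log2(normalized count + 1) for genes with at least 10 normalized counts in at least 4 libraries. Fold changes on this scale understate those of low genes. P-values were adjusted over all 11820 genes by the Benjamini-Hochberg method, with a threshold of 0.05. On the recovered reads, edgeR 4.0.16 (quasi-likelihood) called 308 genes higher and 369 lower on 3D, and DESeq2 1.42.0 called 708 higher and 871 lower. The main limma fit was tested on simulated counts that held no GC trend and no stray library. Exonic lengths, positions and GC content came from GENCODE M21 on GRCm38, the mm10 build, which may differ from the annotation the reads were counted on.

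Other settings comprised 3 scalings, 2 pseudocounts, 2 filters, the replicate number as a block, removal of GC trends (lowess, span 30%) and leaving out libraries. The members and gene lists were chosen with earlier results of these data known. Values in every library are given for members past the threshold and for the 3 most abundant members per kb of each role class, and for Mpp5 and Ocln, which were chosen after their values were seen, and the other genes named are the up to 4 called of each list or its 2 most abundant. The marker Krt8 was named because it passed the threshold, and Elf3 because DESeq2 called it and it was the most abundant regulator per kb.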

Additional observations from a re-analysis of the deposited data

Results flagged for a closer look

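Among 50 groups of 4 libraries, 10 held 1 value far from its nearest neighbour relative to the range of the group (above Dixon's 95% critical value), where chance gives about 1 in 20 groups. Among the junction genes on 3D collagen, replicate 3 was the high library for Pard6a (278 normalized counts, next 242) and Crb3 (1157, next 942). On 2D collagen, Prkci was high in replicate 1 (3805, next 2700) and Crb3 in replicate 2 (1486, next 1131), while Tjp1 was low in replicate 2 (154, next 805) and Tjp3 in replicate 4 (51.5, next 174). The high Prkci library lies on the side away from the 3D libraries, and without it the log2 fold change was −1.74.

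Among the other genes of the pathway on 3D collagen, Crb2 was low in replicate 1 (16.99, next 21.0) and Twist2 high in replicate 4 (315, next 208). On 2D collagen, Amotl2 was high in replicate 3 (9726, next 7742) and Klf5 low in replicate 2 (37.0, next 66.4).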

How the results depend on the processing

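Of 417 fold changes of junction genes under 22 other settings, 395 kept their direction and their side of the threshold. Cldn12 passed in all 22. Of the counts for junction genes, that of higher genes was 0 in each fit leaving out 1 library and that of lower genes 2.

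The labels do not say whether replicate numbers pair the libraries, and the main fit did not pair them. Deviations of same-numbered libraries correlated at −0.17, 0.37, 0.25 and 0.81 for numbers 1 to 4. While 3D replicate 1 correlated best with 2D replicate 2 (0.45), 3D replicates 2, 3 and 4 each correlated best with the 2D library of the same number. Whether same-numbered libraries shared a source was not tested. With the replicate block 1 junction gene was higher (Cldn10, limma adjusted p = 0.0144), and with GC trends removed and the replicate block 2 (Cldn10 0.00771, Cldn4 0.0136). The replicate block gave 663 genes higher and 742 lower over all genes (275 and 401 in the main fit), and 8 other pathway genes lower. GC removal together with the block gave 994 and 1077 over all genes, and 9 higher and 11 lower in the pathway.

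With GC removal alone the counts were 481 higher and 605 lower over all genes, and 6 and 5 in the pathway. DESeq2 gave 708 and 871, and 8 and 8. Library size scaling gave 498 genes and 7 pathway genes higher, upper-quartile scaling 6 pathway genes higher, and these scalings moved the median of all genes by 0.17 and 0.10 (log2). Without both libraries numbered 4, 171 genes and 1 pathway gene were higher. Without 2D replicate 2 and 3D replicates 1 and 2 the counts were 0 higher and 14 lower over all genes, 0 and 0 in the pathway, and 1 junction gene lower, with fewer libraries in the fit. Leaving out 1 library gave 44 to 267 genes higher and 104 to 370 lower, and 0 to 2 and 1 to 5 pathway genes.

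Signs turned for 4 junction genes near no change or with 1 stray library, and the cause was not tested. Cldn1 was −0.32 with GC removal, with or without the block, −0.027 without those 3 libraries and −0.068 to 0.21 leaving out 1, below 0 when 3D replicate 2, 3D replicate 3, 2D replicate 2 or 2D replicate 4 was dropped. Mpp5 was −0.11 in edgeR, −0.15 in DESeq2, −0.25 without the 3 libraries and −0.44 to 1.29 leaving out 1, below 0 without 2D replicate 2. Pard6a was 0.024 with library size scaling, 0.068 with GC removal, with or without the block, 0.068 without the 3 libraries and −0.30 to 0.014 leaving out 1, above 0 without 2D replicate 2. Tjp1 was −0.10 without the 3 libraries and −0.024 to 0.81 leaving out 1, below 0 without 2D replicate 2. Jam2 had no value under the filter of 50. With 4 libraries a group, changes of genes with wide intervals could not be resolved, and 18 junction genes had too few reads to compare.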
